A study of Mus musculus with 10 samples.

Results

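The wild-type ezrin rescue line of K7M2, a mouse osteosarcoma cell line, was compared with the parental K7M2 cells from which it was derived. By the sample titles, the 2 lines hold 4 of the 10 libraries of the series, 2 from each line. Every gene that passed a filter on low counts was tested. Parental K7M2 cells carried an unaltered genotype and no construct. In the rescue line the ezrin gene had been disrupted on both alleles, and wild-type ezrin was then put back by stable transfection. The empty-vector line, which has the same disrupted background and no ezrin construct, is given beside the results with its 2 libraries. The remaining libraries come from 2 further derived lines, which carry the ezrin variants T567A and T567D. All 10 libraries were fitted together, so the spread behind each p-value was estimated from all of them. All lines were grown untreated in DMEM with fetal bovine serum, and poly-A RNA was sequenced. The titles of all derived lines carry 1 shared tag, and 1 stable line stands for each construct: construct, derivation and line cannot be told apart in the comparison with parental cells. The species of the introduced ezrin cDNA is not given in the sources used here. Nothing in the labels says whether the 2 libraries of a line were grown as separate cultures. The p-values therefore rest on library-to-library spread that could be purely technical.

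Ezrin, encoded by Ezr, belongs with radixin and moesin to the ERM proteins, which tie actin filaments to membrane proteins such as CD44 and podocalyxin. In its closed form ezrin lies in the cytoplasm, and phosphorylation of a threonine near its C-terminus favours the open form that binds actin. Ezrin is known in osteosarcoma for its link to metastatic behaviour, and a rescue line is made to ask which features of a disrupted line return with the protein.

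Total counts in the 4 libraries lay between 16846966 and 17715944, and 3 counts in a library equalled between 0.171 and 0.175 CPM (counts scaled to a common library total after TMM correction). Values of a line are given as CPM in replicates 1 and 3 in turn, or 2 and 3 for the empty-vector line. Changes are log2 differences of the rescue line minus parental cells. The value after ± is an approximate standard error, the size of the change divided by the square root of edgeR's quasi-likelihood F statistic. It may be too small where 1 line has few counts. Among 11 osteoblast-lineage markers, Runx2, Spp1, Sparc, Col1a1, Col1a2 and Alpl were measured in both lines, while Ibsp and Dlx5 were at 0 in both and Sp7 and Bglap had at most 2 counts in a library. The 10 myeloid markers summed to between 1178 and 1186 CPM in parental and between 1383 and 1394 CPM in rescue libraries. Nearly all of this was Csf1r, with Ptprc, Adgre1, C1qa and C1qb at 0 in both lines. Summed levels of the lymphoid, endothelial, epithelial, adipocyte, chondrocyte and skeletal muscle markers were at most 5.00 CPM in any of the 4 libraries.

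Ezr mRNA was more abundant in the rescue line than in parental cells. Ezr (chromosome 17, 6738041 to 6782784, minus strand, GRCm38) stood at 164 and 166 CPM in the parental, 230.4 and 233 CPM in the rescue and 72.4 and 72.9 CPM in the empty-vector libraries. The 3 lines did not overlap, with the rescue line highest and the empty-vector line lowest. The rescue line exceeded parental cells by 0.49 ± 0.063 (edgeR adjusted p = 9.19e-07) and the empty-vector line by 1.68 ± 0.066 (edgeR adjusted p = 1.96e-13). The excess over parental cells was 1.41-fold and did not pass a test against a 1.5-fold change. Transcripts of the construct and of the endogenous gene cannot be told apart in these counts.

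The relatives of ezrin were all lower in the rescue line than in parental cells, as were 28.5% of all tested genes. Among them, Msn lies on chromosome X, where 77.8% of tested genes were lower (median -0.69). Rdx, which encodes radixin, fell from 316 and 343 CPM in parental to 219 and 221 CPM in rescue libraries (-0.58 ± 0.062). Msn, which encodes moesin, went from 642 and 667 to 534 and 519.9 CPM (-0.31 ± 0.056), and Nf2, which encodes the related tumour suppressor merlin, from 196 and 195 to 148 and 138 CPM (-0.46 ± 0.061). Each difference passed edgeR's quasi-likelihood test, and none of these genes differed between the rescue and empty-vector lines past the threshold (edgeR adjusted p = 0.0939, 0.984 and 0.853). Under a test against a 1.5-fold change none of the 4 genes was called.

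Of 23 tested genes for ERM membrane partners, scaffolds and kinases, 10 were higher and 6 lower in the rescue line. Among all tested genes 27.7% were higher and 28.5% lower. Under a test against a 1.5-fold change 1 of the 23 was higher and none lower. Podxl, which encodes the ezrin-binding sialomucin podocalyxin, rose from 1.45 and 0.992 CPM in parental to 9.89 and 9.37 CPM in rescue libraries, with 3.50 and 3.01 CPM in the empty-vector line (2.97 ± 0.2 against parental, edgeR adjusted p = 4.67e-11). The rescue line was also above the empty-vector line (edgeR adjusted p = 1.11e-06). Cd44, the hyaluronan receptor that binds ERM proteins, rose from 386 and 405 to 636 and 630.1 CPM (0.68 ± 0.058). Arhgef28, a guanine nucleotide exchange factor, fell from 132 and 138 to 89.9 and 86.0 CPM (-0.62 ± 0.063).

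Across the transcriptome, 7084 of 12595 tested genes differed between the rescue and parental lines at an adjusted p under 0.05 (56.2%), 3489 of them higher (27.7%) and 3595 lower (28.5%) in the rescue line. At this rate of calls, a list of genes is read against these shares. Tested against a 1.5-fold change, 1056 of the 12595 genes were higher and 801 lower. List counts under that test are read against those numbers. The libraries of the 2 lines did not overlap for 79.2% of tested genes. Changes over 2-fold were rarer, with 993 genes higher (7.88%) and 642 lower (5.1%), and 427 and 205 of all tested genes were over 4-fold (3.39% and 1.63%). Of the 993 genes over 2-fold higher, 555 were below 1 CPM in parental cells and 294 reached 10 CPM in the rescue line, whereas 313 of the 642 lower genes had at least 10 CPM in parental cells. Gene names with at least 1 count numbered 15076 and 15178 in parental and 16087 and 16100 in rescue libraries, against 15435 and 15343 in the empty-vector line. The difference of the rescue line from the empty-vector line, which is the test of whether the 2 derived lines departed from parental cells by different amounts, was called for 1966 genes (15.6%), 1039 higher (8.25%) and 927 lower (7.36%). Over 2-fold, 190 genes were higher (1.51%) and 31 lower (0.246%), and over 4-fold 58 (0.461%) and 8 (0.0635%). Upper-quartile scaling gave 1249 higher and 674 lower in that comparison. Leaving out any 1 of its 4 libraries gave fewer calls: 840 and 1014 without replicates 2 and 3 of the empty-vector line, and 876 and 995 without replicates 1 and 3 of the rescue line.

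Part of the difference from parental cells followed position along the chromosomes. Windows of 25 neighbouring tested genes, 491 in all, had a median log2 fold change near that of all genes (0.0039) over most of the genome. In 30 windows the median lay at least 0.5 away, 14 high and 16 low, and neighbouring ones were joined into stretches. The longest were on chromosomes 5 and X, with 9 and 11 such windows, while the stretches of chromosomes 9 and 13 were single windows. They were chosen on the values given here, so the values are descriptions and were not tested.

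**Figure D1:**
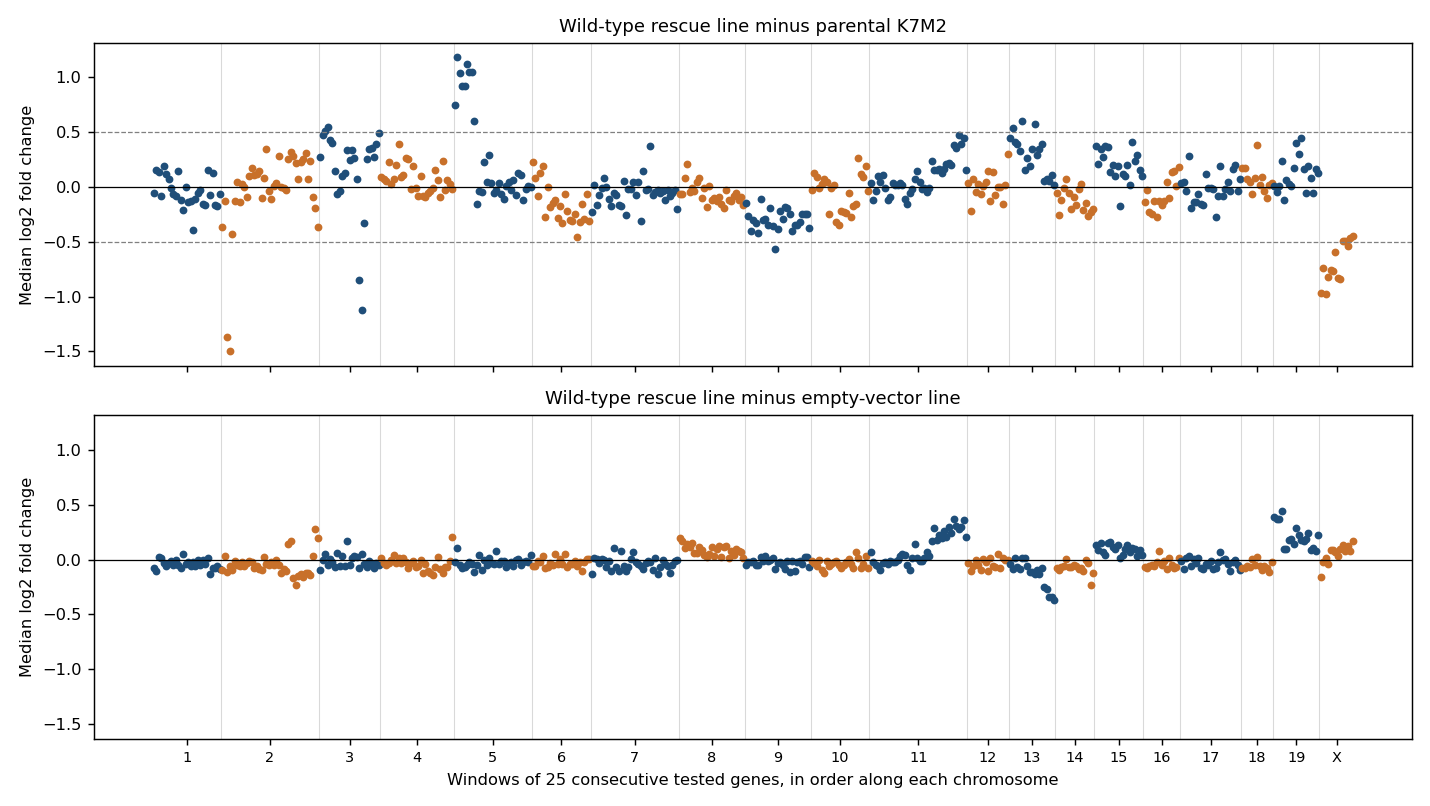
Median log2 fold change of each window of 25 tested genes, in order along the chromosomes, for the rescue line minus parental cells (top) and minus the empty-vector line (bottom). Dashed lines mark the distance of 0.5 used to name windows. The start of chromosome 5 stands near 1, stretches of chromosomes 2 and 3 stand below -0.5, and most windows of chromosome X stand below -0.5 in the top panel and near 0 in the bottom one.

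The first stretch of chromosome 5, from 3341485 to 52867797, held 225 tested genes, of which 195 were higher and 10 lower in the rescue line. Their median change was 0.99, a fold of 1.99, with quartiles of 0.75 and 1.25. Psmc2, a proteasome subunit, stood at 182 and 172 CPM in parental and 386 and 380.2 CPM in rescue libraries, Rheb, the GTPase that activates mTORC1, at 117 and 102 against 225 and 214 CPM, and Hadha, an enzyme of fatty acid oxidation, at 136 and 138 against 323 and 316 CPM. These 3 were picked after their values were seen. In the next window along the chromosome the median was -0.15.

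The stretch of chromosome 2 from 17343909 to 25409494 held 50 tested genes, 45 of them lower, with a median of -1.45. Bmi1, a Polycomb protein, went from 344 and 344 CPM in parental to 113 and 122 CPM in rescue libraries, Tubb4b, a beta-tubulin, from 1854 and 1806 to 690.1 and 698 CPM, and Anapc2, a subunit of the anaphase-promoting complex, from 351 and 348 to 126 and 116 CPM. These genes were also picked after their values were seen. The median fold of the stretch was 0.366. On chromosome 3, from 103020426 to 108088011, 34 of 50 tested genes were lower, with a median of -0.94. The change there was uneven. Nras, a Ras GTPase, at 173 and 179.9 CPM in parental against 184 and 187 CPM in rescue libraries, lies near the start of the stretch and was not called. Farther along, the scaffold gene Magi3, at 197 and 202 against 65.9 and 62.3 CPM, and Ahcyl1, at 645 and 656 against 207 and 219 CPM, were lower. These 3 genes, too, were picked after their values were seen. An earlier stretch of chromosome 3, from 34056020 to 53463332, had 37 of 50 tested genes higher (median 0.53).

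Chromosome X was lower over most of its length. Of its 374 tested genes 291 were lower (77.8%) and 31 higher in the rescue line, with a median of -0.69, a fold of 0.62. Of the 12 consecutive windows from 6399854 to 147833456, 11 passed the 0.5 threshold. Smaller shifts stood on chromosome 9 (372 of 686 tested genes lower, median -0.31) and chromosome 13 (259 of 493 higher, median 0.30). DNA copy number was not measured, and whether these stretches differ in copy number between the lines was not tested.

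All derived lines, among them 2 that carry the ezrin variants named T567A and T567D, showed these stretches. In the chromosome 5 stretch the median change from parental cells on log2(CPM + 0.5) was 0.95 and 0.94 in the rescue, 0.98 and 1.01 in the empty-vector, 0.82 and 0.81 in the T567A and 0.96 and 0.95 in the T567D libraries. In the chromosome 2 stretch it was -1.41 and -1.40 in the rescue and -1.31 and -1.32 in the empty-vector libraries. Along the X stretch it was -0.71 and -0.68 in the rescue and -0.75 and -0.73 in the empty-vector libraries. The fitted difference of the rescue from the empty-vector line had a median of -0.05 in the chromosome 5 stretch, -0.07 on chromosome 2 and 0.05 on X. All these lines are compared with the same parental libraries.

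**Figure D2:**
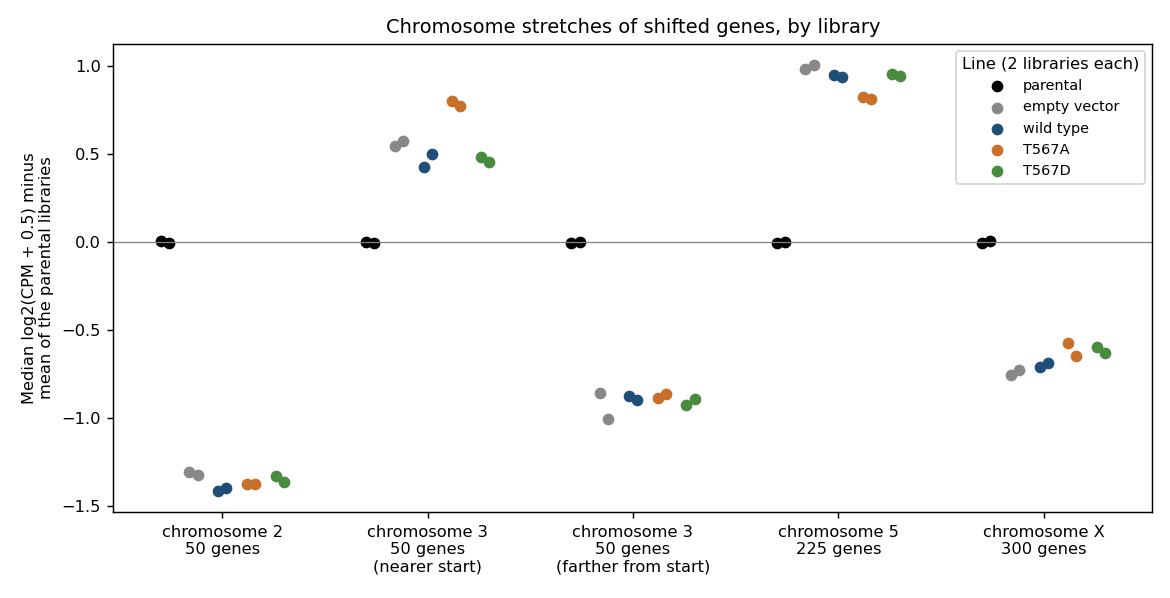
Median over the genes of each stretch of at least 50 tested genes of log2(CPM + 0.5) minus the mean of the parental libraries, 1 point per library (y axis) for each stretch (x axis). The 8 libraries of derived lines lie apart from the 2 parental libraries in each stretch, and in the chromosome 3 stretch nearer the start the T567A libraries (0.80 and 0.77) stand above the other derived ones.

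Chromosome X and the stretches together held 849 tested genes, of which 727 were called in either direction (85.6%). Of the other 11746 genes, 3163 were higher and 3194 lower (54.1% called). The gene groups described next are given with the count outside these stretches wherever it differs by more than a few members.

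Genes that were nearly lost in the rescue line, and in the empty-vector line as well, stood apart from these regional shifts. Mmp2, which encodes the gelatinase that degrades basement membrane collagen (chromosome 8, 92827291 to 92853420), was at 120.2 and 117 CPM in parental and 0.175 and 0.286 CPM in rescue libraries (-8.96 ± 0.17, edgeR adjusted p = 8.19e-20). Nsd1, which encodes a histone H3K36 methyltransferase (chromosome 13, 55209782 to 55318325), had 374 and 437 counts in parental and 2 and 1 in rescue libraries, a ratio of 273 (95% counting interval 93.1 to 1327). Adgrl1, which encodes the adhesion receptor latrophilin-1 (chromosome 8, 83900105 to 83941954), had 242 and 284 counts in parental and 2 and 2 in rescue libraries, a ratio of 133 (51.6 to 489). For 3830403N18Rik, on chromosome X, 332 and 314 counts in parental libraries stood against 0 in both rescue libraries, at least 108-fold lower against a floor of 3 counts per library. Intervals and floors cover counting error only. The empty-vector libraries had 1 and 0 counts of Mmp2, 0 and 0 of Nsd1, 0 and 1 of Adgrl1 and 0 and 0 of 3830403N18Rik. Nsd1 and 3830403N18Rik were also at 0 in the T567A and T567D lines. Adgrl1 averaged 0 CPM in T567A and 0.232 CPM in T567D.

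Neighbours were examined for Nsd1, Adgrl1 and 3830403N18Rik. Of 21 tested genes within 500 kb of Nsd1, 13 were higher and none lower in the rescue line, with changes from -0.10 to 0.77. Over chromosome 13 as a whole, 52.5% of tested genes were higher and 9.53% lower. Rab24, the tested gene closest to Nsd1, averaged 34.0 CPM in parental and 33.9 CPM in rescue libraries and was not called. Prelid1, the next closest, stood at 432 CPM on average in parental and 598 CPM in rescue libraries. Within 500 kb of Adgrl1, 26 tested genes had changes between -1.58 and 1.45, 10 of them lower and 4 higher. Over chromosome 8, 32.8% of tested genes were lower and 20.2% higher. All 4 tested neighbours of 3830403N18Rik were lower, with changes from -1.01 to -0.59, and 77.8% of tested genes on X were lower.

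Other large decreases were in metabolic, receptor and cytoskeletal genes. Ass1, the argininosuccinate synthase of arginine synthesis, fell from 256 and 232 to 3.78 and 4.28 CPM (-5.92 ± 0.1), and Renbp, a renin-binding epimerase of sialic acid metabolism on chromosome X, from 37.7 and 33.8 to 0.291 and 0.0571 CPM. Also X-linked were Il2rg, the common gamma chain of cytokine receptors (16.8 and 16.3 against 0.175 and 0.229 CPM), and Tlr7, the endosomal sensor of single-stranded RNA (81.2 and 87.8 against 2.15 and 3.08 CPM). Their changes were -6.31 and -5.01, beside the median of -0.69 for the chromosome. Avil, an actin-severing protein of the villin family, fell from 128 and 126 to 9.78 and 8.74 CPM (-3.78 ± 0.089), and Prex2, a Rac exchange factor, from 37.3 and 41.2 to 3.38 and 2.57 CPM (-3.72 ± 0.15). Elfn1 fell from 38.5 and 35.2 to 1.80 and 1.37 CPM and Medag from 46.0 and 44.9 to 4.25 and 2.63 CPM. Fmnl1, a formin that elongates actin filaments, was the one gene among the 12 largest decreases that also differed between the derived lines: it stood at 89.2 and 87.6 CPM in parental, 5.53 and 4.46 CPM in rescue and 1.07 and 0.983 CPM in empty-vector libraries (2.27 ± 0.21 against the empty vector, edgeR adjusted p = 2.71e-07).

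**Figure D3:**
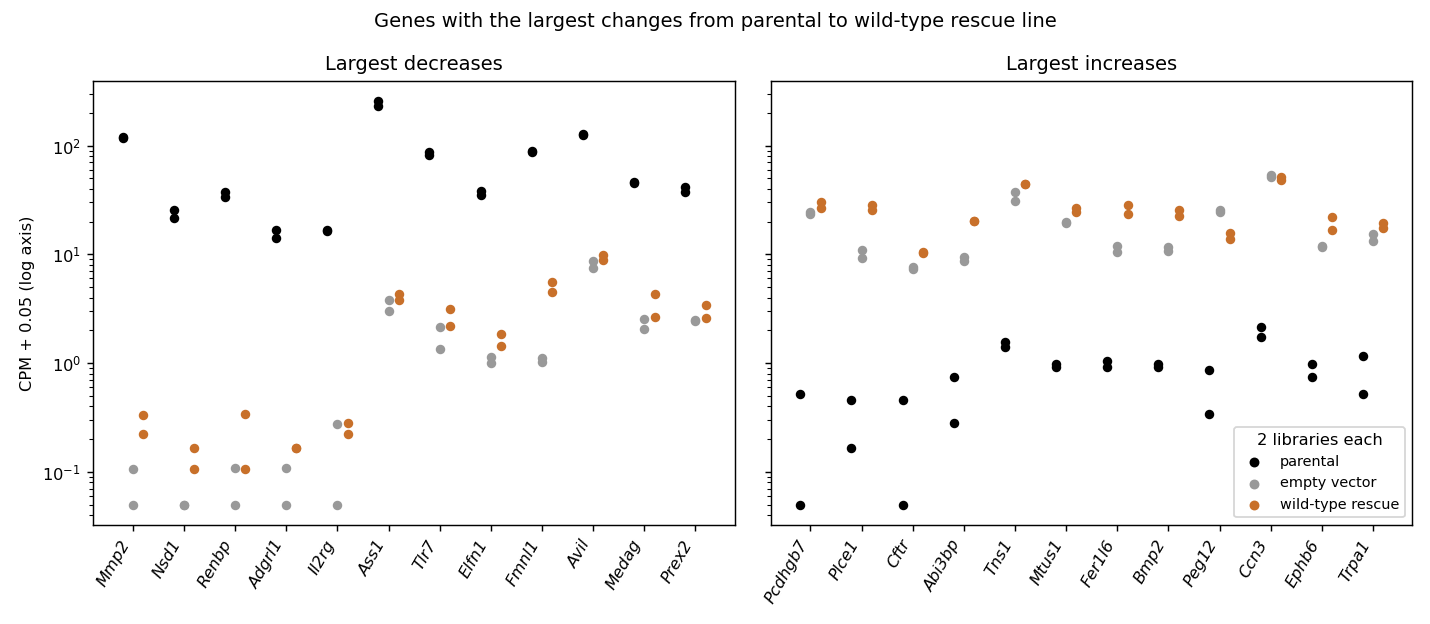
CPM + 0.05 on a log axis in each of the 2 libraries of the parental, empty-vector and wild-type rescue lines, for the 12 genes with the largest decrease (left) and the 12 with the largest increase (right) from parental cells. Parental points lie apart from those of both derived lines for all 24 genes, and Fmnl1 is the one decrease for which the rescue line was called higher than the empty vector.

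Among the largest increases were genes of signalling, adhesion and transport that parental cells barely expressed. Pcdhgb7, a clustered gamma-protocadherin, had 0 and 8 counts in parental and 520 and 468 in rescue libraries (30.3 and 26.7 CPM). Its exons downstream are shared with other gamma-protocadherins, so reads could be split among them by the counting. Plce1, a phospholipase C that links Ras to calcium signalling, rose from 0.407 and 0.117 to 28.2 and 25.5 CPM (6.64 ± 0.24), and Cftr, the chloride channel, from 0 and 0.408 to 10.2 and 10.4 CPM (5.61 ± 0.33). Tns1, a tensin that links integrins to actin, rose from 1.51 and 1.34 to 44.1 and 44.0 CPM (4.94 ± 0.15). Trpa1, an irritant-gated cation channel, went from 0.465 and 1.11 to 17.6 and 19.2 CPM (4.54 ± 0.2), and Ephb6, an ephrin receptor without kinase activity, from 0.697 and 0.933 to 22.1 and 16.9 CPM (4.57 ± 0.24).

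Of the 12 largest increases 8 were called higher in the rescue than in the empty-vector line, and 1 lower (8.25% and 7.36% of all tested genes). These genes were chosen for high values in the rescue libraries, which enter both comparisons, so this count is a description. Bmp2, a bone morphogenetic protein that induces osteoblasts, was at 0.872 and 0.933 CPM in parental, 10.6 and 11.7 CPM in empty-vector and 22.7 and 25.5 CPM in rescue libraries. The rescue line exceeded parental cells by 4.73 ± 0.17 and the empty vector by 1.11 ± 0.11 (edgeR adjusted p = 4.28e-07). Plce1 exceeded the empty vector by 1.41 ± 0.12, Fer1l6, a ferlin, by 1.22 ± 0.11, and Abi3bp, a matrix-associated protein, by 1.17 ± 0.12 (edgeR adjusted p of 7.28e-08, 1.94e-07 and 6.10e-07). Peg12, an imprinted gene, showed the reverse order of the derived lines, with 0.291 and 0.817 CPM in parental, 25.7 and 24.5 in empty-vector and 13.9 and 15.7 in rescue libraries (-0.76 ± 0.11). Ccn3, a matricellular protein, rose from 1.69 and 2.10 to 48.1 and 51.6 CPM and did not differ from the empty vector past the threshold (-0.08 ± 0.083, edgeR adjusted p = 0.579).

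Genes of the extracellular matrix moved in both directions. Of 24 tested collagen chain genes, 10 were higher and 8 lower in the rescue line, with a median of 0.42. Col1a1, the major chain of bone collagen (chromosome 11, 94936224 to 94953042), fell from 1804 and 1827 CPM in parental to 272 and 247 CPM in rescue libraries (-2.81 ± 0.073, edgeR adjusted p = 1.42e-17). Col1a2, its partner in type I collagen, changed far less, with 3528 CPM on average in parental and 2986 CPM in rescue libraries (-0.24). Col1a2 was singled out after its values were seen. Col5a3, a type V chain, fell from 9.18 and 8.28 to 1.34 and 0.857 CPM. Minor chains rose from low levels, Col4a5 of basement membranes from 0.814 and 0.758 to 8.21 and 9.88 CPM and Col24a1 from 0.349 and 0.408 to 3.49 and 2.80 CPM. Col4a5 lies on chromosome X and rose against the direction of that chromosome.

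Among 26 tested genes of matrix glycoproteins and proteoglycans 13 were higher and 7 lower (median 0.48). Prelp, a leucine-rich proteoglycan that anchors matrix to basement membranes, fell from 184 and 182 to 14.6 and 16.5 CPM (-3.56 ± 0.087), below the empty-vector line at 25.5 and 27.2 CPM (-0.76 ± 0.098, edgeR adjusted p = 1.53e-05). Matn2, a matrilin, rose from 3.49 and 3.68 to 10.0 and 9.37 CPM, and Tgfbi, a matrix protein induced by TGF-beta, from 0.291 and 0.117 to 1.16 and 1.94 CPM. Of 21 enzymes that crosslink or modify collagen, 8 were higher and 9 lower. Lox, the lysyl oxidase, was at 455 and 486 CPM in parental, 254 and 256 in empty-vector and 180.2 and 161 in rescue libraries (-1.46 ± 0.08 against parental and -0.58 ± 0.08 against the empty vector, both called). Adamts2, the procollagen N-proteinase, was lower in the rescue line (3.26 and 2.97 CPM) than in parental (8.25 and 9.22 CPM) and empty-vector cells (13.4 and 13.8 CPM), the empty-vector line being the highest of the 3.

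Of 17 tested matrix metalloproteinases and inhibitors, 7 were higher and 5 lower, Mmp2 among them. Mmp13, a collagenase of bone, rose from 41.8 and 39.2 to 174 and 212 CPM (2.25 ± 0.18), Mmp3, stromelysin-1, from 8.43 and 7.00 to 27.4 and 34.0 CPM (1.99 ± 0.12), and Mmp19 from 1.98 and 1.40 to 7.27 and 6.23 CPM (1.99 ± 0.21). The empty-vector line was at 187 and 181 CPM for Mmp13, close to the rescue line, and at 44.4 and 41.7 CPM for Mmp3, above it (-0.49 ± 0.099, edgeR adjusted p = 0.00194). Of 8 ADAMTS proteases 4 were higher and 3 lower. Adamts5, an aggrecanase, fell from 107 and 121 to 41.9 and 48.7 CPM, and Adamts4, another aggrecanase, rose from 1.28 and 1.17 to 5.18 and 6.46 CPM.

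Integrins, the receptors that bind matrix, rose more often than they fell, 10 against 5 of 17 tested, with a median of 0.56, and 6 against 4 under a test against a 1.5-fold change. Itga11, a subunit of a collagen receptor, was at 62.7 and 60.7 CPM in parental, 6.58 and 7.25 in rescue and 2.03 and 1.27 in empty-vector libraries. The rescue line was lower than parental cells (-3.16 ± 0.11) and higher than the empty vector (2.06 ± 0.2, edgeR adjusted p = 4.43e-07). It lies in a window of chromosome 9 with a median of -0.56. Itgb3, the beta subunit of the vitronectin receptor, rose from 0.349 and 0.292 to 4.597 and 2.97 CPM, with 0.961 and 0.578 CPM in the empty-vector line. Itga1 rose from 0.465 and 0.817 to 4.48 and 4.11 CPM, and Itgb6 fell from 1.80 and 1.52 to 0.0582 and 0.229 CPM. Of 15 cadherin and protocadherin genes 6 were higher and 6 lower. Pcdh7 rose from 1.74 and 1.81 to 36.3 and 33.9 CPM (4.30 ± 0.14) and Pcdh10 from 2.44 and 3.50 to 25.7 and 24.4 CPM (3.08 ± 0.15), while Pcdh1 fell from 48.6 and 47.6 to 10.5 and 12.6 CPM (-2.06 ± 0.1).

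**Figure D4:**
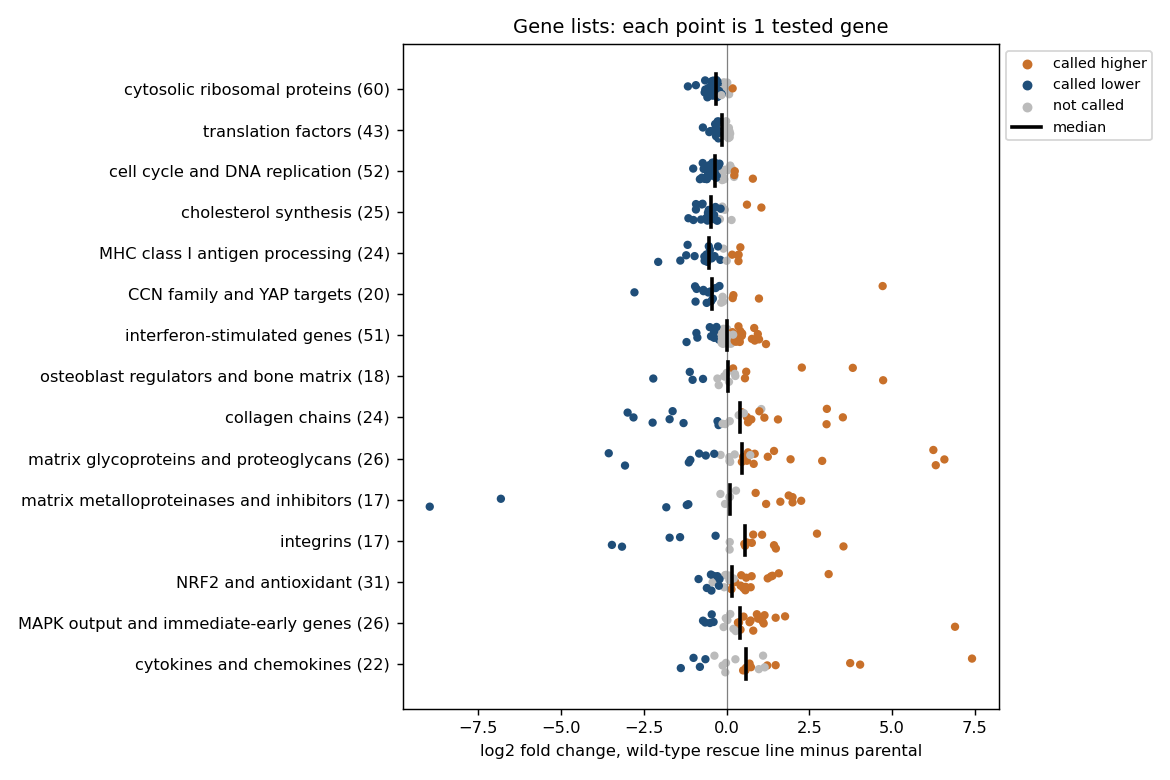
Log2 fold change of the rescue line minus parental cells (x axis) for each tested gene of 15 gene lists (rows, with the number tested), coloured by call, with the list median as a bar. Ribosomal protein and cell cycle genes lie close together just below 0, whereas matrix, integrin and protease genes spread to both sides.

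Genes of osteoblasts and bone matrix were mixed, with 6 higher and 4 lower of 18 tested (55.6% called, beside 56.2% of all tested genes). Alpl, the alkaline phosphatase of mineralising cells, rose from 2.27 and 1.69 CPM in parental to 9.95 and 9.25 CPM in rescue libraries, with 5.20 and 6.07 CPM in the empty-vector line (2.27 ± 0.2 against parental, 0.77 ± 0.16 against the empty vector, both called). Tnfrsf11b, which encodes osteoprotegerin, the decoy receptor that restrains osteoclasts, rose from 0.291 and 0.233 to 3.90 and 3.66 CPM. Bmp4 fell from 257 and 236 to 115 and 114 CPM (-1.11 ± 0.062). Runx2, the master regulator of the lineage, did not pass the test (0.01 ± 0.086, edgeR adjusted p = 0.952), at 35.7 and 38.4 CPM in parental and 36.6 and 37.8 CPM in rescue libraries. It is given as a defining marker. Summed over 11 lineage markers, levels were between 7188 and 7334 CPM in parental and between 4550 and 4664 CPM in rescue libraries, and the difference was mostly in Col1a1, Sparc and Col1a2. In bulk libraries, fewer cells of a type and less RNA per cell cannot be told apart.

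Of 27 actin and contractility genes 11 were higher and 6 lower (63.0% called, beside 56.2% of all tested genes). Tagln2, an actin-bundling transgelin, rose from 26.6 and 25.3 to 156 and 159 CPM (2.60 ± 0.082), and the empty-vector line was higher still at 209 and 192 CPM. Acta2, smooth muscle actin, rose from 12.0 and 10.8 to 48.0 and 41.8 CPM (1.98 ± 0.1), beyond the empty-vector line at 23.7 and 20.9 CPM (1.01 ± 0.091, edgeR adjusted p = 1.63e-07). Cnn2, a calponin, fell from 268 and 261 to 158 and 149 CPM (-0.78 ± 0.061). Targets of the transcriptional coactivator YAP and the CCN family were mostly lower, 13 against 4 of 20 tested, with a median of -0.44 and none of them in the shifted stretches. Under a test against a 1.5-fold change 4 were lower and 2 higher. Amotl2, a YAP inhibitor and target, fell from 786 and 818 to 428 and 403 CPM, and Nuak2 from 10.9 and 8.17 to 1.28 and 1.49 CPM. Wwtr1, which encodes the YAP relative TAZ, rose from 63.5 and 63.8 to 130.3 and 121 CPM.

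Cytosolic ribosomal protein genes shifted down together by a small amount. Of 60 tested, 49 were lower and 1 higher in the rescue line (28.5% of all tested genes were lower), with a median of -0.33. Outside chromosome X and the stretches the count was 45 lower and 1 higher of 56. Against the empty-vector line 3 of the 60 were higher and 3 lower, beside 8.25% and 7.36% of all tested genes. Under a test against a 1.5-fold change 2 of the 60 were lower than in parental cells, beside 801 of all 12595 tested genes. The individual decreases were small. The largest were in the X-linked genes Rps4x, from 1475 and 1379.7 to 632 and 640.0 CPM (-1.17 ± 0.058), and Rpl10, from 843 and 769 to 414 and 435 CPM (-0.93 ± 0.07). Rpl32 fell from 734 and 764 to 473 and 475 CPM (-0.66 ± 0.059) and Rpl14 from 980.4 and 911 to 605 and 604 CPM (-0.65 ± 0.068). Many ribosomal protein genes have processed copies elsewhere in the genome, so that the counting could split their reads.

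Translation factors leaned the same way, with 21 lower, none higher and 22 not called of 43 (median -0.12). Of all tested genes 28.5% were lower and 27.7% higher. Under a test against a 1.5-fold change 1 of the 43 was lower. Eef2, the translocase of elongation, fell from 7200.0 and 7105 to 4413 and 4309.7 CPM (-0.71 ± 0.056), and Eef1a1, which delivers aminoacyl-tRNA, from 14956 and 13613 to 10015 and 9902 CPM (-0.52 ± 0.069). Eif3g went from 206 and 186 to 141 and 138 CPM and Eef1g from 1902 and 1771 to 1417 and 1430.5 CPM. Of 40 DEAD-box and DEAH-box RNA helicase genes 17 were lower and 6 higher, and 1 and 0 under the 1.5-fold test. The share called was 57.5%, beside 56.2% of all tested genes. Ddx20, a partner of the SMN complex, fell from 74.4 and 73.9 to 26.7 and 27.0 CPM (-1.47 ± 0.075) and lies in the chromosome 3 stretch of lower genes. Ddx18 fell from 196 and 191 to 126 and 137 CPM, and Ddx41 rose from 102 and 101 to 152 and 141 CPM.

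Messenger RNAs of ribosomal proteins are known for a run of pyrimidines at their 5′ end, which couples their translation to growth signals. The letters CTCTTT were sought, in the transcribed direction, within 50 bases on either side of the RefSeq start. They were found in 14 of 45 ribosomal protein genes with a promoter entry (31.1%) and in 283 of 9735 tested genes with one (2.91%). Among translation factors 2 of 31 held them (6.45%). Of the 14, 5 are shown because the letters begin within 3 bases of their annotated start and each was called lower in the rescue line, with changes from -0.58 to -0.27. They are printed from 60 bases before to 30 bases after the start, 5′ to 3′ on the coding strand, from RefSeq sequences of GRCm38.p6, with the searched letters in capitals.
Rpl18: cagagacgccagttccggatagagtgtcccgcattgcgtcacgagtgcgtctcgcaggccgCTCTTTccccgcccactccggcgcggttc
Rpl28: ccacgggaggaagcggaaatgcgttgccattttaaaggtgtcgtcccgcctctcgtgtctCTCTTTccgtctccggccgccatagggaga
Rpl35: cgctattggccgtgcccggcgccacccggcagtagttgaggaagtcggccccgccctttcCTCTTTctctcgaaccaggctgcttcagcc
Rps6: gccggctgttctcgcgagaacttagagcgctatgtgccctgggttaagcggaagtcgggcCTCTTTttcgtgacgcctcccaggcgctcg
Rps9: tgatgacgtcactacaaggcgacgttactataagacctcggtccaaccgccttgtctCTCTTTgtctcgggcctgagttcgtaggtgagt
In Rpl28, Rpl35 and Rps6 the capitals begin at the first annotated base. Rpl18 lies at chr7:45718011-45718100 on the plus strand, Rpl28 at chr7:4792905-4792994 (plus), Rpl35 at chr2:39005102-39005191 (minus), Rps6 at chr4:86857338-86857427 (minus) and Rps9 at chr7:3703981-3704070 (plus). A match of letters is a description, and translation was not measured.

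Cell cycle and DNA replication genes were lower in the rescue line, 38 against 3 higher of 52 tested (median -0.33). Outside the shifted stretches the count was 37 lower and 2 higher of 49. Mcm6, a subunit of the replicative helicase, fell from 422 and 434 to 248 and 242 CPM (-0.80 ± 0.057), and Mcm10, which loads polymerase at origins, from 85.7 and 90.4 to 51.0 and 54.2 CPM (-0.74 ± 0.069). Pola1, the catalytic subunit of DNA polymerase alpha on chromosome X, fell from 103 and 107 to 51.5 and 53.2 CPM (-1.01 ± 0.077). Tyms, thymidylate synthase, rose from 73.8 and 74.0 to 127 and 129 CPM (0.80 ± 0.064) and lies in the chromosome 5 stretch of higher genes. Compared with the empty-vector line 26 of the 52 were lower and none higher, against 7.36% of all tested genes lower. Under a test against a 1.5-fold change 4 of the 52 were lower than in parental cells, beside 801 of all 12595 tested genes. Of 20 p53 target genes 8 were higher and 5 lower (65% called, beside 56.2% of all tested genes). Trp53inp1 rose from 9.18 and 11.4 to 22.9 and 23.7 CPM.

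Genes of cholesterol synthesis were lower, 18 against 2 higher of 25 tested (median -0.46). In the comparison with the empty-vector line 22 of the 25 were lower and none higher, beside 7.36% of all tested genes lower. Dhcr7, the last reductase of the pathway, was at 21.7 and 22.5 CPM in parental, 18.0 and 17.4 in empty-vector and 11.9 and 11.4 in rescue libraries (-0.92 ± 0.098 against parental and -0.61 ± 0.1 against the empty vector, both called). Nsdhl, from 54.5 and 57.4 to 25.7 and 24.7 CPM, and Ebp, from 50.4 and 48.1 to 25.8 and 23.5 CPM, are X-linked. The 2 increases, in Insig1, the sterol-sensing brake on the pathway (40.0 and 42.5 against 87.8 and 83.4 CPM), and in Cyp51, lie in the chromosome 5 stretch. Both were lower in the rescue than in the empty-vector line. Without X and the stretches 16 of 21 were lower and none higher. Under a test against a 1.5-fold change 6 of the 18 decreases were called.

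The promoter of Hmgcs1, which makes HMG-CoA, is shown because it was the one of 17 cholesterol genes with a promoter entry to hold the letters TCACNCCAC, a form of the sterol regulatory element bound by SREBP factors, on either strand of 300 bases around the start. Of 9735 tested genes with an entry 89 held them (0.914%). Hmgcs1 stood at 108 and 121 CPM in parental, 77.5 and 80.4 CPM in rescue and 139 and 142 CPM in empty-vector libraries, so that the empty-vector line was the highest. The rescue line was lower than parental cells (-0.54 ± 0.067) and the empty vector (-0.83 ± 0.067), both called. The sequence runs from 250 bases before to 30 bases after the start, at chr13:119690101-119690380 on the plus strand, with the match in capitals.
Hmgcs1: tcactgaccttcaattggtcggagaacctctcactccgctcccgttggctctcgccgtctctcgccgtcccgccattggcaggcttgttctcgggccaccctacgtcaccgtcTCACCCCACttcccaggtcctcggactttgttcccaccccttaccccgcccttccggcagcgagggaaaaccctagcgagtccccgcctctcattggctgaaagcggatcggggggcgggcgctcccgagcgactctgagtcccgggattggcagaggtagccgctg
No match in the other promoters says only that these letters are not in the window searched.

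In lipid handling, Abca1, the cholesterol exporter, rose from 0.174 and 0.233 to 2.74 and 3.20 CPM (3.82 ± 0.37), and Abcg1, another sterol exporter, fell from 6.33 and 6.07 to 1.34 and 0.857 CPM (-2.49 ± 0.23). Scd2, a fatty acid desaturase, was at 423 and 490.0 CPM in parental, 411 and 404 in empty-vector and 243 and 227 in rescue libraries, lower in the rescue line than in both other lines (-0.96 ± 0.069 and -0.80 ± 0.068, both called). Of the 24 tested genes of fatty acid synthesis and lipid handling 5 were higher and 9 lower. The share called was 58.3%, beside 56.2% of all tested genes. Among 28 genes of glycolysis and hypoxia response, 10 were higher and 11 lower. Slc16a1, the lactate transporter MCT1, fell from 151 and 160.1 to 36.9 and 43.8 CPM (-1.95 ± 0.081) and lies in the chromosome 3 stretch of lower genes. Pfkp, a phosphofructokinase, rose from 5.58 and 5.31 to 13.8 and 13.02 CPM (1.30 ± 0.12).

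Genes of the MHC class I pathway, which presents peptides to T cells, were lower in 17 and higher in 5 of 24 tested (median -0.52), with none of them on X or in the stretches. The immunoproteasome gene Psmb8 was at 188 and 184 CPM in parental, 134 and 121 in empty-vector and 71.7 and 69.6 in rescue libraries, with no overlap between the 3 lines (-1.40 ± 0.074 against parental and -0.85 ± 0.075 against the empty vector, edgeR adjusted p = 1.09e-12 and 9.71e-08). Psmb9, its partner, fell from 37.3 and 40.3 to 17.7 and 16.6 CPM (-1.18 ± 0.086). The class I genes H2-Q7 (26.6 and 26.0 against 6.58 and 6.00 CPM) and H2-Q6 (78.1 and 71.4 against 33.9 and 30.4 CPM) were lower, though near-identical class I genes may share reads. Against the empty-vector line 10 of the 24 were lower and none higher, beside 7.36% of all tested genes lower. Under a test against a 1.5-fold change 5 of the 17 decreases were called.

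Interferon-stimulated genes showed no common direction, with 19 higher, 11 lower and 21 not called of 51 (median 0.02). The share called was 58.8%, beside 56.2% of all tested genes. Ifit3b, of a family that binds foreign RNA, rose from 43.9 and 45.9 to 106 and 99.1 CPM (1.19 ± 0.068), Gbp2, an interferon-induced GTPase, from 49.1 and 53.2 to 103 and 99.3 CPM (0.98 ± 0.067), and Zbp1, a sensor of Z-form nucleic acid, from 13.1 and 12.7 to 26.9 and 22.6 CPM (0.94 ± 0.12). Oasl1 fell from 35.0 and 36.2 to 14.9 and 15.9 CPM (-1.21 ± 0.095). Gbp2 was lower in the rescue than in the empty-vector line at 124 and 127 CPM, and Ifit3b was higher (-0.31 ± 0.064 and 0.52 ± 0.065, both called).

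Of 22 tested cytokine and chemokine genes 10 were higher and 4 lower (median 0.58), and 6 and 3 under a test against a 1.5-fold change. Csf1, the macrophage growth factor, fell from 2044 and 2081 to 768 and 817 CPM (-1.38 ± 0.056, edgeR adjusted p = 1.59e-14) and lies in the chromosome 3 stretch. Its receptor gene Csf1r, singled out after its values were seen, was at 1176 and 1183 CPM in parental and 1379 and 1389.7 CPM in rescue libraries (0.23 ± 0.056, edgeR adjusted p = 0.00145), and lower than in the empty-vector line (edgeR adjusted p = 0.0292). Cxcl11, a chemokine for activated T cells, rose from 2.67 and 2.39 to 7.33 and 6.86 CPM (1.48 ± 0.17), beyond the empty-vector line at 3.17 and 3.76 CPM. Ccl20 had 0 counts in both parental and 17 and 26 counts in the rescue libraries.

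Among signalling genes, the output genes of the MAPK pathway were higher in 15 and lower in 5 of 26 tested (median 0.40). Etv1 rose from 6.45 and 6.01 to 16.2 and 18.6 CPM (1.48 ± 0.13) and Etv5 from 12.4 and 12.8 to 28.5 and 27.4 CPM (1.15 ± 0.092), both transcription factors induced by this pathway. Fosl2, an AP-1 subunit in the chromosome 5 stretch, rose from 137 and 141 to 296 and 309 CPM (1.12 ± 0.058). Outside the stretches 13 were higher and 5 lower of 24, and under the 1.5-fold test 8 of the list were higher and none lower. Of 32 genes for growth factors and receptor kinases 9 were higher and 12 lower (65.6% called, beside 56.2% of all tested genes). Fgf2 rose from 0.465 and 0.467 to 3.67 and 4.798 CPM and Fgf1 from 4.18 and 4.78 to 17.4 and 14.2 CPM. Pdgfb fell from 70.7 and 74.0 to 19.7 and 19.4 CPM.

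TGF-beta and BMP genes split evenly, 11 higher and 10 lower of 32. Bambi, a pseudoreceptor that blocks TGF-beta signalling, had 0 and 3 counts in parental and 175 and 167 in rescue libraries (10.2 and 9.54 CPM, edgeR adjusted p = 2.68e-12). The ligand genes Tgfb3, from 27.5 and 27.1 to 7.80 and 6.57 CPM, and Tgfb2, from 20.5 and 21.1 to 6.52 and 9.08 CPM, fell. Of 17 Wnt genes 4 were higher and 8 lower. Wnt5a, a noncanonical ligand, rose from 1.57 and 1.46 to 20.5 and 23.4 CPM (3.85 ± 0.15), while Wnt10b, from 5.64 and 4.38 to 0.815 and 0.971 CPM, and the receptor gene Fzd2, from 34.1 and 31.3 to 11.5 and 9.03 CPM, fell.

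Of 12 genes of the insulin-like growth factor axis 3 were higher and 4 lower (58.3% called, beside 56.2% of all tested genes). Igfbp4, a binding protein that sequesters the growth factor, was at 158 and 145 CPM in parental, 38.3 and 37.2 in rescue and 12.1 and 11.6 in empty-vector libraries. The rescue line stood below parental cells (-2.002 ± 0.072) and above the empty vector (1.67 ± 0.09, edgeR adjusted p = 4.42e-11), without overlap between the 3 lines. Pappa2, a protease that cleaves such binding proteins, fell from 12.7 and 10.5 to 4.71 and 5.83 CPM, and Igf2r, which clears the growth factor, rose from 72.4 and 77.7 to 184 and 172 CPM (1.24 ± 0.078).

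Stress and redox genes leaned upward for the targets of NRF2, the regulator of antioxidant defence, with 16 higher and 8 lower of 31 tested (median 0.18). Hmox1, haem oxygenase, rose from 67.5 and 67.2 to 166 and 175 CPM (1.34 ± 0.07), Akr1b8, an aldo-keto reductase, from 29.1 and 29.3 to 75.5 and 77.2 CPM (1.39 ± 0.077), and Aox1, aldehyde oxidase, from 2.85 and 2.45 to 22.8 and 22.3 CPM (3.08 ± 0.14). Sod3, the secreted superoxide dismutase, rose from 85.0 and 78.2 to 248 and 239 CPM (1.58 ± 0.072) and lies in the chromosome 5 stretch. Outside the stretches 14 were higher and 4 lower of 25, and under the 1.5-fold test 6 of the list were higher and none lower. Of 34 genes of the integrated stress and unfolded protein responses 11 were higher and 15 lower, Trib3 rising from 19.4 and 18.5 to 34.3 and 34.2 CPM and Cth falling from 16.2 and 16.0 to 8.67 and 8.80 CPM.

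Mitochondrially encoded genes took 0.844% and 1.05% of counts in parental and 1.21% and 1.33% in rescue libraries, and 2 of their 13 tested protein-coding genes were higher. For mt-Co3 the levels were 1171 and 1443 CPM in parental and 1577 and 1654 CPM in rescue libraries (0.31 ± 0.1), and for mt-Nd6 2.21 and 4.14 against 7.33 and 11.5 CPM (1.57 ± 0.51). Both calls were lost without parental replicate 1 (edgeR adjusted p of 0.147 and 0.157) and without wild-type replicate 3 (0.106 and 0.158).

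Of 24 tested genes for H3K36 methyltransferases, DNA methyltransferases and Polycomb proteins 4 were higher and 9 lower. The share called was 54.2%, beside 56.2% of all tested genes. Nsd2, a relative of Nsd1, rose from 249 and 250.5 to 477 and 485 CPM (0.94 ± 0.059) and lies in the chromosome 5 stretch. Dnmt3b, a de novo DNA methyltransferase, fell from 3.55 and 2.68 to 0.407 and 0.400 CPM, and Kdm2b, a CpG-binding demethylase, from 62.2 and 56.1 to 35.3 and 35.2 CPM. Of 17 arginine and polyamine genes 4 were higher and 5 lower (52.9% called, also beside 56.2%). The X-linked Sms, spermine synthase, fell from 114 and 113 to 65.5 and 69.8 CPM. Of 18 sialic acid genes 7 were higher and 4 lower (61.1% called, beside 56.2% of all tested genes). Neu1, a lysosomal sialidase, rose from 14.3 and 15.1 to 25.3 and 26.3 CPM. St3gal6, a sialyltransferase, rose from 15.2 and 14.9 to 22.6 and 26.6 CPM.

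Ion channels and transporters were higher in 14 and lower in 5 of 29 tested (median 0.24). Trpm6, a magnesium channel with a kinase domain, set the rescue line apart from both others, with 4.59 and 4.61 CPM in parental, 3.45 and 4.51 in empty-vector and 19.7 and 18.6 in rescue libraries. Its excess was 2.05 ± 0.15 over parental cells and 2.26 ± 0.15 over the empty vector (edgeR adjusted p = 1.35e-10 and 1.30e-09). Kcnk2, a mechanosensitive potassium channel, rose from 6.97 and 7.12 to 34.6 and 35.6 CPM (2.32 ± 0.098), with 33.0 and 34.7 CPM in the empty-vector line. Atp1b1, a sodium pump subunit, fell from 19.0 and 19.8 to 1.57 and 1.89 CPM (-3.48 ± 0.16).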

How the data were processed

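Poly-A RNA of 10 K7M2 libraries was sequenced on the DNBSEQ platform with a strand-marking kit, per the labels. The authors deposited raw counts per gene name and, separately, RPKM values. Per the submitters' processing notes the build was GRCm38. The read aligner and counter, the annotation and any use of strand were not given in the sources used here. Counts of all 10 libraries, 41743 names, were fitted together with 5 group means in edgeR 4.0.16 (R 4.3.3): filter with minimum count 10 and minimum total 15, TMM scaling, robust quasi-likelihood test with 5 residual degrees of freedom, Benjamini-Hochberg threshold 0.05. The fit was also run on simulated counts with known changes in few genes, all in the rescue line. Far more genes differed in the data, so that run cannot show the error rate of the calls given here. RPKM values served limma 3.58.1 as an alternative, and DESeq2 1.42.0 was another. Positions came by symbol from GENCODE M21 for 40502 names and RefSeq for 595 more. Promoters came from RefSeq for 9735 tested genes.

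The genes and lists were chosen with earlier results of these data known. Named are Ezr, Msn, Rdx and Nf2, the 12 largest called increases and decreases among annotated protein-coding genes whose libraries did not overlap and whose higher line averaged 10 CPM or more, genes near absent in 1 line, and up to 4 called members with the largest change and at least 1 CPM from each list. Other genes singled out are said to be so in the text, and neighbours, markers and genes beside printed sequences fall outside the rule. Replicate numbers did not pair the libraries by any label. Intervals are exact binomial at the 95% level, converted to ratios. Figures were drawn with matplotlib 3.10.9. Some genes are not reported here.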

Additional observations from a re-analysis of the deposited data

How the results depend on the processing

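Counts for the rescue line against parental cells held within 1.5 times under most settings. Tested against a 1.5-fold change, 1857 genes were called, 1056 higher and 801 lower, and Ezr (0.49) was no longer called. Calls over 2-fold numbered 1635, against 832 with a filter of at least 5 CPM in 2 libraries and 496 on log2(RPKM + 1). With the replicate number as a block, 6776 genes were called, 3337 higher and 3439 lower. The deviations of same-numbered rescue and parental libraries correlated at -0.0161 over 2 pairs, so the numbers were not used to pair them.

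For the rescue line against the empty vector, 1966 genes were called, 1039 higher, 927 lower and 221 over 2-fold. DESeq2 called 1294, with 572 lower and 133 over 2-fold. The replicate block gave 1082, with 603 higher and 479 lower, and a fit of the 4 libraries alone 3029, with 1601 and 1428. A test against a 1.5-fold change called 87, with 72 higher, 15 lower and 82 over 2-fold. An adjusted p under 0.01 left 1000, with 572 higher, 428 lower and 143 over 2-fold. Over 2-fold, 87 genes were called with at least 5 CPM and 23 on log2(RPKM + 1). Leaving out each library in turn gave 840 to 1014 calls, 470 to 601 higher, 368 to 429 lower and 141 to 170 over 2-fold. The share of calls that were higher ran from 52.8% to 82.8% over 15 settings, and from 48.6% to 56.9% against parental cells.

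Medians of the stretches were recomputed in each setting, and 4 are given here, those with the most genes or the largest shift. These 4 kept their sign in every setting run. In the order chromosome 2, chromosome 3 from 103020426, chromosome 5 and X, they were -1.41, -0.91, 1.03 and -0.70 with upper-quartile scaling, -1.15, -0.50, 0.79 and -0.53 on log2(RPKM + 1), and -1.37, -0.81, 1.01 and -0.66 on log2(RPKM + 0.1). With at least 5 CPM the first 3 were -1.43, -0.99 and 1.01. Leaving out each library in turn gave -1.46 to -1.43, -1.01 to -0.97, 0.98 to 0.99 and -0.76 to -0.72. The number of genes near absent in 1 line, 3, became 4 to 6. The causes were not tested. Of 70 list counts, 59 moved by over 1.5 times under the test against a 1.5-fold change and 0 to 7 under each other setting. Depth limits folds that rest on few counts in 1 line, such as those of Nsd1, Adgrl1, Plce1 and Cftr.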

Other observations

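The clustered protocadherins of chromosome 18, cell adhesion genes that cells express in different combinations, were called mostly lower in the beta cluster and mostly higher in the gamma cluster. No set test was run. Of 11 tested Pcdhb genes none was higher and 7 were lower in the rescue line than in parental cells (median -0.99). Of 16 tested Pcdhg genes 11 were higher and 2 lower (median 1.93). Among all tested genes 27.7% were higher and 28.5% lower. Pcdhga10, Pcdhga11 and Pcdhgb5 had 0 counts in both parental libraries, so they passed the filter only through derived lines. The gamma count and median include these and other genes near 0 in parental cells. Pcdhb16 stood at 8.02 and 7.23 CPM in parental and 1.22 and 1.43 CPM in rescue libraries, and Pcdhb21 at 7.21 and 6.48 against 2.44 and 1.89 CPM. Pcdhgb6 stood at 0.0581 and 0.233 CPM in parental and 7.22 and 4.86 CPM in rescue libraries, while Pcdhga6 went the other way, from 23.8 and 22.3 to 7.91 and 8.00 CPM. Pcdhgc3, the most abundant of the tested members, changed little, from 330 and 311 to 419 and 393 CPM (0.34 ± 0.06). These families were examined after their values were seen. Pcdhg transcripts share their downstream exons, so reads could be split among them.

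On chromosome X, Xist, the noncoding RNA of X inactivation, was higher in the rescue line while most coding genes of the chromosome were lower. It stood at 393 and 494 CPM in parental, 717 and 711 CPM in rescue and 606 and 671 CPM in empty-vector libraries (0.69 ± 0.16 against parental, edgeR adjusted p = 0.00759; 0.16 ± 0.15 against the empty vector, edgeR adjusted p = 0.556). The gene was chosen after its values were seen, and an antisense gene overlaps it, whose reads could be counted with it if strand was not used. Neither allele-specific expression nor DNA copy number was measured, and their part was not tested.

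Along the chromosomes the rescue and empty-vector lines also differed from each other. The first 4 windows of chromosome 19, from 3259076 to 5894149, had medians of the rescue minus the empty-vector line between 0.37 and 0.44, and those against parental cells between -0.04 and 0.24. The last 5 windows of chromosome 13, from 86044816 to 117025537, had medians between -0.37 and -0.25 against the empty vector and between 0.02 and 0.11 against parental cells. On chromosome 11 the 14 windows from 95666957 to 121255856 had medians between 0.18 and 0.37 against the empty vector and between 0.13 and 0.48 against parental cells. These windows were chosen after their values were seen, and the cause was not tested.

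Markers of other cell types moved at low levels. Ctsk, a protease typical of osteoclasts, fell from 9.41 and 8.11 to 0.466 and 0.685 CPM (-3.91 ± 0.28), with the other 5 osteoclast markers at or near 0, and Sox9, a regulator of cartilage cells, rose from 0.174 and 0.408 to 3.43 and 3.31 CPM (3.50 ± 0.36). Comp (1.93, edgeR adjusted p = 0.0125) and Col10a1 (3.02, edgeR adjusted p = 0.0189), the other tested cartilage markers, were also higher, at 12 counts or fewer in any of the 4 libraries, and Acan was at 0. Ctsk and Sox9 were chosen after their values were seen.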
